A study of Mus musculus with 32 samples.

Results

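The interferon response genes described here are 42 mouse genes that are known to be switched on by interferons or to carry the interferon signal. They were chosen by name, and each symbol was matched to an Ensembl identifier of the deposited count tables. All 42 were found among the 41388 genes of the tables. Of them, 40 had enough reads to be tested, and Mx1 and Mx2 did not. The genes lie on 14 chromosomes, and the 4 IFIT genes stand side by side on chromosome 19.

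Interferons are secreted proteins that cells release when they sense viral or other foreign nucleic acid. Type I and type III interferons act through receptors that activate the kinases JAK1 and TYK2, and these phosphorylate STAT2, which acts on the promoters of target genes together with IRF9. Interferon gamma uses another receptor. The target genes encode sensors of viral RNA, proteins that block viral translation or degrade RNA, GTPases that act on membranes of invading microbes, and factors that prolong or end the response. Cells also keep a low level of many of these genes without infection, which is the state that unstimulated cultures show.

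The RNA came from chondrocytes, the cells that make and maintain cartilage, in primary culture. They were isolated from femoral heads at postnatal day 21, kept in medium with 10% serum and collected without passage after 4 days. LG/J mice are an inbred strain that heals ear and cartilage wounds well, whereas inbred SM/J mice heal them poorly, and the study asked how their chondrocytes differ. Each strain was represented by females and by males, giving 4 groups of 8 libraries with no treatment, transgene or targeted allele in the labels. Each of the 32 libraries is named below by strain, sex and the number in its title. Whether the 8 numbers of a group stand for separate animals or cultures is not said in the labels. The p-values therefore rest on the spread between libraries, which may be technical.

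Total counts ran from 15840330 to 25571598 per library. The libraries LG/J female 1, LG/J male 1, LG/J male 6 and SM/J female 2 stood apart in earlier work on these data, and results are given with all libraries and without these 4. Earlier work also found 6 libraries with transcripts of both sexes (female 4 and female 5 of LG/J, female 3, female 4, male 2 and male 3 of SM/J) and 6 pairs of libraries close to each other, and both were treated as alternative settings. The summed level of 9 chondrocyte markers was 1612 CPM (counts scaled to a common library size, with TMM factors) in LG/J female 1 and 2652 CPM in LG/J male 1, against a median of 29180 CPM over the LG/J libraries. The summed level of 19 macrophage markers was 2527 CPM in LG/J male 6 and 1928 CPM in SM/J female 2, the top 2 values of the series. LG/J female 1 and LG/J male 1 had 585 and 483 CPM. The other 13 LG/J libraries had 63.3 to 361 CPM and the other 15 SM/J libraries 121 to 958 CPM. Macrophage transcripts were thus present in these cultures, and none of 5 defining markers (Ptprc, Csf1r, Adgre1, Cd68 and Tyrobp) was at 0 in any library. Of the other markers of that list, C1qb was at 0 in 11 libraries, C1qc in 7, Fcgr1 in 4, C1qa in 2 and Mpeg1 in 2. Summed markers of T and natural killer cells reached 3.15 CPM and those of B cells 3.68 CPM. In bulk RNA, fewer cells of a type and less RNA per cell cannot be told apart.

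Promoter windows of the RefSeq annotation (GRCm38.p6, from 250 bases before to 50 after each start) were available for 32 of the 42 genes. The interferon-stimulated response element, the site bound by complexes with STAT2 and IRF9, was searched on both strands as GAAA, any 2 bases and GAAA. It was found in 17 of the 32 genes and in 3.99% of the 27025 genes of that table. The gamma-activated sequence, searched as TTCNNNGAA, was found in 9 of the 32 and in 9.55% of all genes. These are matches of letters in the reference genome, which is neither LG/J nor SM/J. Ifit3 and Ifit3b are shown first because they are near-identical neighbours with unlike strain values. The 250 bases before their starts are at chr19:34583279-34583528 and chr19:34607707-34607956 (GRCm38.p6, plus strand), with matches to the response element in capitals (here on the strand opposite the gene, so that GAAA reads as TTTC):
Ifit3: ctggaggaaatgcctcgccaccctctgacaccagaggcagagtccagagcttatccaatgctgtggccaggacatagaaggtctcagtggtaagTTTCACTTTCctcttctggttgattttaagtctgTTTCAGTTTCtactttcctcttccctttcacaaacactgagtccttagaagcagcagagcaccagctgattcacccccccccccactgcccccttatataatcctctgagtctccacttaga
Ifit3b: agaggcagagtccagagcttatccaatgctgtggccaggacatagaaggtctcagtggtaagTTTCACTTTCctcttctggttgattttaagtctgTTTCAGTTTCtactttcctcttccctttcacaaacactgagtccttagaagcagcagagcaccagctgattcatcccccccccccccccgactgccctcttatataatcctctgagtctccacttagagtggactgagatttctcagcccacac
After alignment these stretches shared 217 of 224 columns (96.9%), with 1 mismatch and 6 gap columns. Both carry 2 elements in the same spacing, the first beginning 156 bases before the start of Ifit3 and 188 bases before that of Ifit3b.

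Shorter stretches around the element are shown for other genes whose values are described below, to let a reader compare the site between them. Capitals again mark every match, and each stretch is read 5′ to 3′ on the strand of its gene. The first 6 genes passed the strain test with all libraries, and Oas1a and Oas3 passed it without the 4 libraries. Gbp2 and Rsad2 were the genes farthest above their strain in LG/J female 1.
Ifit1, chr19:34640770-34640828 (plus strand): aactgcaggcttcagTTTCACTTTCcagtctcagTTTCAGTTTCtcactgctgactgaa
Isg15, chr4:156200860-156200911 (minus strand): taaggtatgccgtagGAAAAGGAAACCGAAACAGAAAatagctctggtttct
Bst2, chr8:71537572-71537617 (minus strand): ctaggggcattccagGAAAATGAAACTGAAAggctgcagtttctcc
Gbp3, chr3:142559984-142560029 (plus strand): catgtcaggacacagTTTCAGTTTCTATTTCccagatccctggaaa
Gbp7, chr3:142530268-142530307 (plus strand): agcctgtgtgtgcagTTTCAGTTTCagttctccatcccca
Irgm1, chr11:48871421-48871465 (minus strand): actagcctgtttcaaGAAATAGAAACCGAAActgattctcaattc
Oas1a, chr5:120907526-120907560 (minus strand): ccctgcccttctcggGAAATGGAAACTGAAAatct
Oas3, chr5:120777710-120777749 (minus strand): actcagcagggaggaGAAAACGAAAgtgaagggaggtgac
Gbp2, chr3:142620589-142620628 (plus strand): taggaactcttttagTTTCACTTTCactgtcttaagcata
Rsad2, chr12:26456548-26456587 (minus strand): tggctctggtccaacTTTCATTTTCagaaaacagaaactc
The windows of Ifit2, Ifi35 and Trim25, which separated the strains completely, held no match to these 10 letters. Ifit3, which also separated them, held 2. Of the genes that passed with overlapping ranges, Samd9l and Lgals3bp held no match, and that of Ifih1 began 32 bases after the start.

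Per length, the 42 genes spanned a wide range of levels. The median RPKM over the 32 libraries was at least 10 for 4 genes, from 1 to 10 for 21 and under 1 for 17. Ifi27, an interferon-induced membrane protein, stood highest at a median of 225 RPKM. Lgals3bp, a secreted glycoprotein, followed at 69.0 RPKM, then the exonuclease Isg20 at 38.3 RPKM and the membrane tether Bst2 at 10.9 RPKM. At the other end were the OAS genes, with medians from 0.0768 RPKM for Oas3 to 0.182 RPKM for Oasl2, and Mx1 and Mx2 at 0.0320 and 0.0135 RPKM. Mx1 was at most 0.787 CPM and Mx2 at most 1.05 CPM in any library, both in SM/J female 2.

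The strain comparison asked which of these genes differ between LG/J and SM/J chondrocytes. Of the 40 tested genes, 13 differed at an adjusted p under 0.05 in edgeR's quasi-likelihood test with Benjamini-Hochberg adjustment over all 16136 genes tested. That is 32.5%, and 29.9% of all tested genes were called, so the share among interferon genes was near the background. Isg15, Trim25 and Gbp3 were higher in LG/J (16.4% of all genes were called in that direction). Ifit1, Ifit2, Ifit3, Ifi35, Bst2, Ifih1, Gbp7, Irgm1, Samd9l and Lgals3bp were lower in LG/J (13.5% of all genes). The median log2 fold change of the tested members was -0.19, against 0.020 over all genes. The other 27 tested genes did not pass, with log2 fold changes from -1.37 (Oas1a) to 1.16 (Oasl1).

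In the fit that left out the 4 libraries, 39 genes were tested and 17 were called, 4 higher and 13 lower in LG/J. Of all 16285 genes tested 33.7% were called, 17.7% higher and 16.0% lower. Of the 13 genes above, 12 were called again and Lgals3bp was not. Irf1, Oas1a, Oas3 and Oasl2 were added as lower and Parp9 as higher in LG/J. The median of the members was then -0.32, against -0.0038 over all genes. The plot of strain differences shows both sets of values for each gene.

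**Figure D1:**
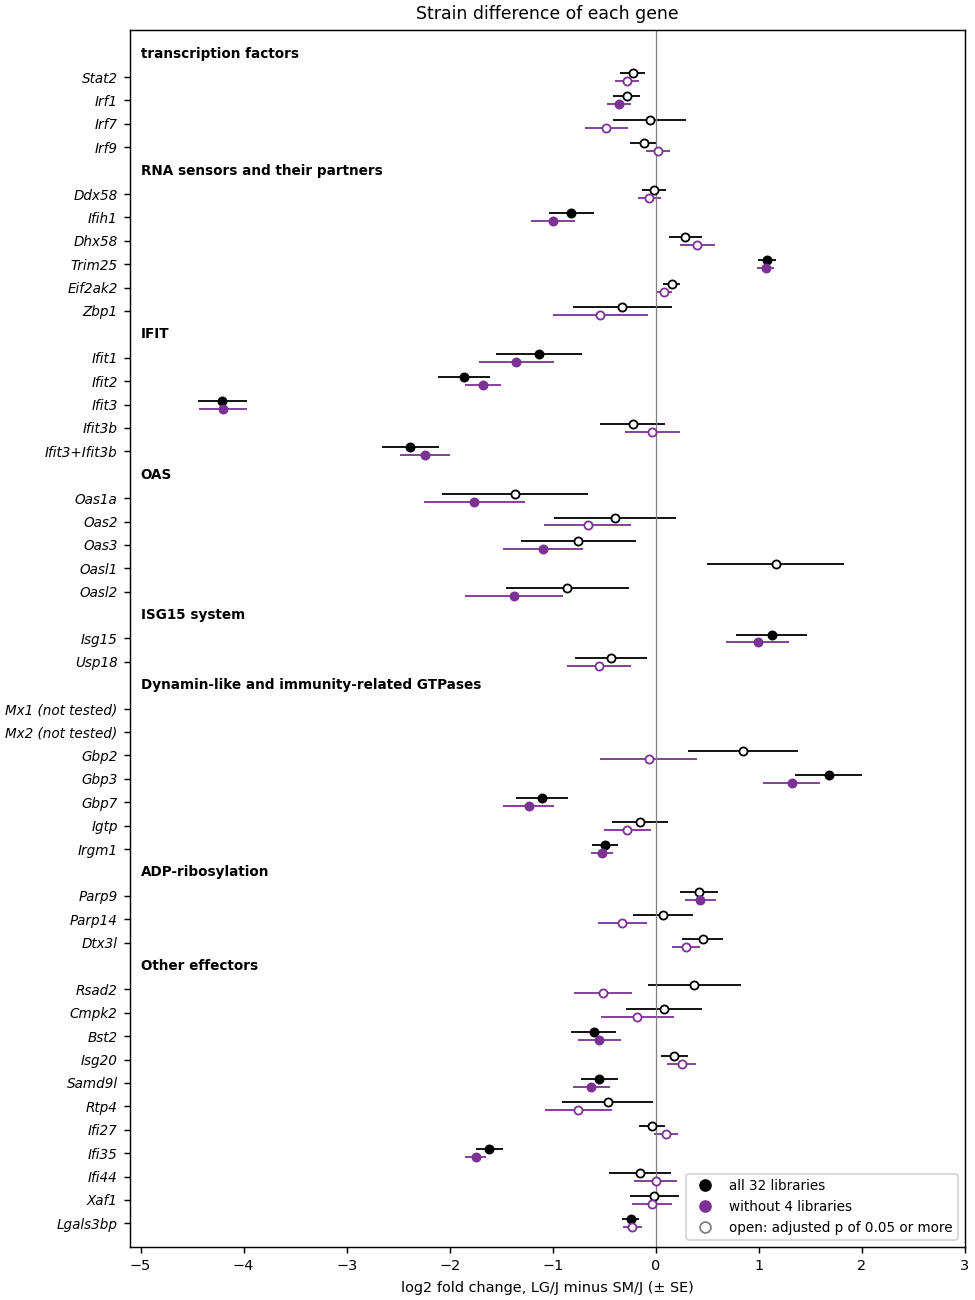
Log2 fold change of each gene between LG/J and SM/J (± SE; positive means higher in LG/J), with all 32 libraries (black) and without LG/J female 1, LG/J male 1, LG/J male 6 and SM/J female 2 (purple), by role. Filled points passed an adjusted p of 0.05; Ifit3 lies farthest from 0 at -4.21 and Gbp3 farthest on the other side at 1.68 with all libraries.

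Complete separation of the strains, with every library of one beyond every library of the other, was seen for Ifit2, Ifit3, Ifi35 and Trim25. Among all tested genes, 2.62% were both called and without overlap. The 4 genes stayed separate without the 4 libraries, where that share was 3.24%.

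The IFIT genes encode tetratricopeptide proteins that bind viral RNA ends and the translation machinery. Ifit3 showed the largest strain difference of the 42 genes. In LG/J its lowest, median and highest levels were 0.287, 1.20 and 2.98 CPM, and in SM/J they were 12.7, 22.4 and 38.6 CPM (16 libraries each). Even the lowest SM/J library was above the highest LG/J library. The log2 fold change was -4.21 ± 0.24 (SE), or 18.5-fold lower in LG/J, with an adjusted p of 9.2e-16 in edgeR's test, and -4.20 without the 4 libraries.

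Ifit3b, the neighbouring copy, did not show this. Its levels ran from 0.379 to 8.82 CPM in LG/J (median 4.55) and from 1.94 to 10.00 CPM in SM/J (median 4.66). The ranges overlapped, and the log2 fold change was -0.22 ± 0.32 with an adjusted p of 0.64 in edgeR's test. The transcripts of the 2 genes share sequence. Of all stretches of 50 bases in Ifit3 transcripts, 51.2% also occur in Ifit3b, and 44.5% of those of Ifit3b occur in Ifit3, so reads can be assigned to either copy. The share of the pair's counts given to Ifit3 was 18.0 to 64.7% in LG/J (median 23.6%) and 76.3 to 91.7% in SM/J (median 82.4%). It was highest within LG/J in LG/J male 1, and without the 4 libraries the LG/J range was 18.0 to 28.4%.

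For this reason the pair was also summed. Ifit3 plus Ifit3b had levels of 0.925, 5.60 and 10.9 CPM in LG/J and 15.1, 28.5 and 47.9 CPM in SM/J (lowest, median, highest). The strains still did not overlap. The log2 fold change of the sum was -2.38 ± 0.28, or 5.21-fold lower in LG/J, with an adjusted p of 4.3e-08 in edgeR's test. Without the 4 libraries it was -2.24 ± 0.24 (adjusted p = 3.4e-08, edgeR).

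Ifit2, whose transcripts share no stretch of 50 bases with another gene, had 0.801, 8.69 and 15.3 CPM in LG/J and 19.2, 29.4 and 43.0 CPM in SM/J. All LG/J libraries were below all SM/J libraries, and LG/J female 1 and LG/J male 1 were the lowest of all at 0.801 and 1.39 CPM. The log2 fold change was -1.86 ± 0.25 (adjusted p = 7.4e-07, edgeR) and -1.67 ± 0.17 without the 4 libraries. Ifit1 was low in both strains, with 0.267, 0.995 and 4.09 CPM in LG/J and 0.535, 1.53 and 14.0 CPM in SM/J. Its strain ranges overlapped, and SM/J female 2 held the highest value. The log2 fold change was -1.13 ± 0.41 (adjusted p = 0.037, edgeR). It was -1.36 ± 0.36 without the 4 libraries (adjusted p = 0.0048, edgeR). Ifit1 missed the threshold, with an adjusted p of up to 0.11 (edgeR), after removal of any 1 of 10 libraries. From LG/J these were female 5, female 7, male 2, male 3, male 5 and male 8. From SM/J they were female 2, female 8, male 2 and male 5.

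**Figure D2:**
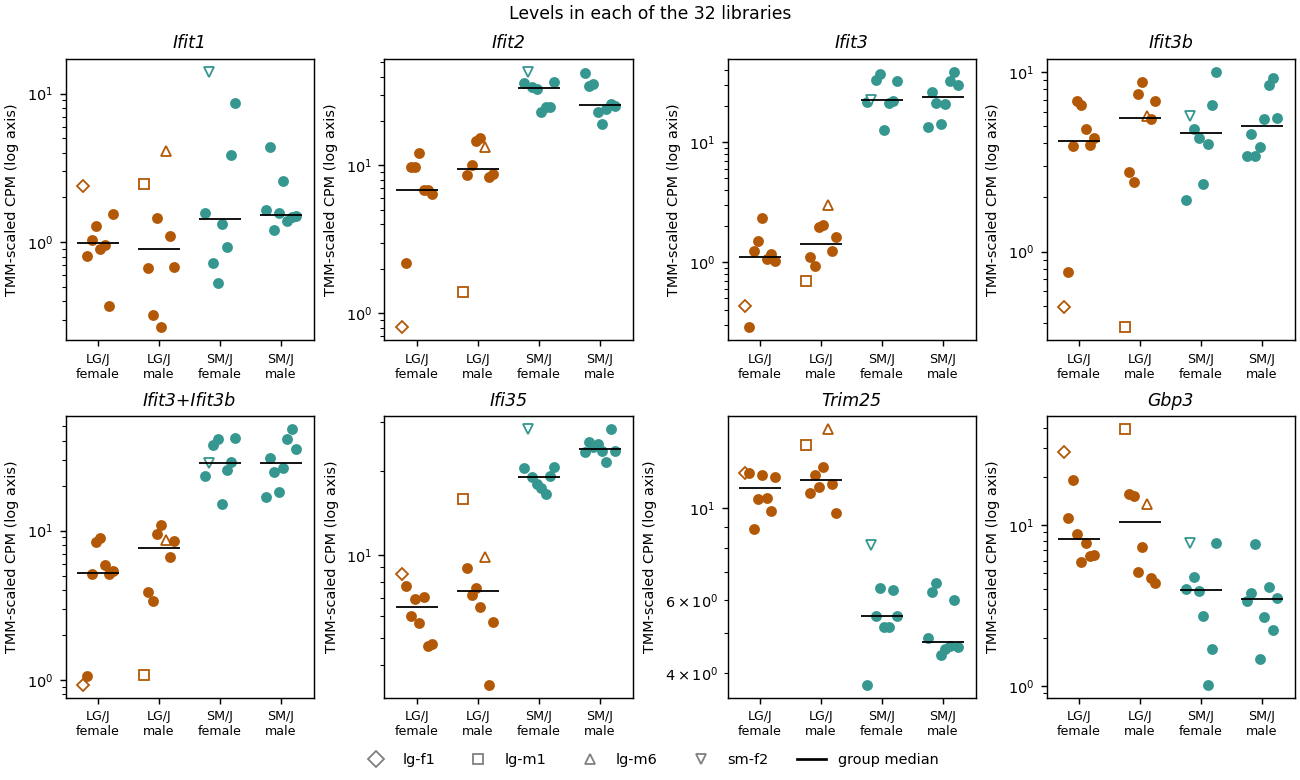
TMM-scaled CPM (log axis) in each library, by strain and sex, for 7 genes and the sum of Ifit3 and Ifit3b; each point is 1 library, the line is the median of 8, and open symbols mark the 4 libraries named in the key. All LG/J libraries lie below the SM/J range for Ifit2, Ifit3, the sum and Ifi35 and above it for Trim25, whereas the Ifit3b ranges overlap.

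Ifi35, a leucine zipper protein that pairs with NMI, was also lower in LG/J without overlap, though the nearest libraries of the strains lay close together. Its levels were 3.40, 6.99 and 15.8 CPM in LG/J and 16.5, 22.5 and 28.3 CPM in SM/J. The highest LG/J value was that of LG/J male 1, and the remaining LG/J libraries apart from the 4 reached 8.94 CPM. The log2 fold change was -1.62 ± 0.13, or 3.06-fold lower in LG/J (adjusted p = 1.1e-11, edgeR), and -1.75 ± 0.10 without the 4 libraries. Of its 50-base stretches, 10.4% also occur in Gm11626, a gene on the opposite strand that averaged 0.0221 CPM.

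Among the other effectors, Bst2, Samd9l and Lgals3bp were lower in LG/J with ranges that overlapped. Bst2, which tethers budding virus particles to the cell surface, had 2.88, 7.61 and 14.1 CPM in LG/J and 3.33, 10.3 and 24.0 CPM in SM/J. Its log2 fold change was -0.60 ± 0.22 (adjusted p = 0.034, edgeR) and -0.55 without the 4 libraries. Leaving out LG/J male 2, LG/J male 3, SM/J female 2, SM/J female 8 or SM/J male 2 took the adjusted p of Bst2 to as much as 0.082 (edgeR). Samd9l, a restriction factor of poxviruses, had 3.28, 6.78 and 12.5 CPM in LG/J and 4.25, 9.62 and 18.2 CPM in SM/J. Its log2 fold change was -0.55 ± 0.18 (adjusted p = 0.021, edgeR). It fell short of the threshold without the 6 libraries that held both sexes' transcripts (-0.30, adjusted p = 0.29, edgeR) and with close pairs summed (adjusted p = 0.066, edgeR). Lgals3bp had 127, 179 and 223 CPM in LG/J and 133, 214 and 278 CPM in SM/J. The difference was small, at -0.24 ± 0.084 (adjusted p = 0.027, edgeR), and missed the threshold without the 4 libraries (adjusted p = 0.068).

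Isg20, Ifi27, Ifi44, Xaf1, Rtp4, Cmpk2 and Rsad2 did not pass in either fit. Ifi27 had 173, 311 and 464 CPM in LG/J and 172, 349 and 464 CPM in SM/J, so its ranges nearly coincided. Rsad2, the antiviral enzyme viperin, had 0.191, 0.864 and 7.89 CPM in LG/J and 0.596, 0.948 and 5.21 CPM in SM/J. The 2 highest LG/J values, 7.89 and 7.21 CPM, were those of LG/J male 1 and LG/J female 1. Its log2 fold change was 0.37 ± 0.45 with all libraries and -0.51 ± 0.28 without the 4 (adjusted p = 0.58 and 0.16, edgeR). Cmpk2, a mitochondrial nucleotide kinase next to Rsad2, likewise went from 0.081 to -0.18, and Ifi27 from -0.037 to 0.098, none of them called. The medians of Cmpk2 were 0.465 CPM (LG/J) and 0.448 CPM (SM/J).

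The RNA sensors divided. Trim25, the ubiquitin ligase that activates the sensor RIG-I, was the only gene of this group above its SM/J range in every LG/J library. It had 8.90, 11.7 and 15.5 CPM in LG/J and 3.74, 5.32 and 8.14 CPM in SM/J. The log2 fold change was 1.08 ± 0.089, or 2.11-fold higher in LG/J (adjusted p = 1.5e-11, edgeR), and 1.07 without the 4 libraries. Ifih1, which encodes the sensor MDA5, was lower in LG/J, with 0.562, 2.01 and 3.91 CPM against 1.80, 3.34 and 5.12 CPM in SM/J. Its ranges overlapped, and the log2 fold change was -0.82 ± 0.22 (adjusted p = 0.0045, edgeR).

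Ddx58, which encodes RIG-I itself, had medians of 29.2 CPM (LG/J) and 30.5 CPM (SM/J) and a log2 fold change of -0.017 ± 0.12. Dhx58 (LGP2), Eif2ak2 (the kinase PKR, which halts translation) and Zbp1 (a sensor of Z-form nucleic acid) did not pass either, at 0.28 ± 0.16, 0.16 ± 0.081 and -0.32 ± 0.48. Dhx58 averaged 8.55 CPM and overlaps Dhx58os on the opposite strand, which averaged 74.4 CPM. The strand setting of the counting is not given in the sources used here, so reads from this pair cannot be told apart.

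None of the 4 transcription factors passed with all libraries. Stat2 had medians of 15.2 CPM (LG/J) and 16.6 CPM (SM/J). Irf9 had 17.6, 27.6 and 35.0 CPM in LG/J and 15.9, 28.6 and 54.9 CPM in SM/J, a log2 fold change of -0.12 ± 0.13 that became 0.024 without the 4 libraries. Irf1, which interferon gamma and inflammatory signals induce, had 14.0, 19.2 and 34.7 CPM in LG/J and 15.9, 23.5 and 35.8 CPM in SM/J. Its log2 fold change was -0.28 ± 0.13 (adjusted p = 0.11, edgeR). It was -0.36 ± 0.12 without the 4 libraries (adjusted p = 0.018, edgeR), and leaving out LG/J female 1 or LG/J male 1 alone also brought the call. Irf7, which amplifies interferon production, had medians of 2.58 and 2.94 CPM and reached 13.2 CPM in LG/J male 6 and 17.1 CPM in SM/J female 2.

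The OAS enzymes make 2-5A, the second messenger that activates RNase L, and the OAS-like proteins modulate sensing. Their levels were low, and the highest ones came from single libraries. Oas1a had 0, 0.119 and 6.74 CPM in LG/J and 0.105, 0.599 and 9.06 CPM in SM/J. Oas3 had 0, 0.353 and 7.72 CPM in LG/J and 0.218, 0.654 and 9.06 CPM in SM/J. Oasl2 had 0, 0.664 and 8.42 CPM in LG/J and 0.0947, 0.792 and 15.2 CPM in SM/J. In each case the highest LG/J library was LG/J male 6 and the highest SM/J library was SM/J female 2.

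None of the 5 OAS genes passed with all libraries in edgeR's test. DESeq2 called 1 of them, Oas1a, as lower in LG/J with all libraries (-2.63, adjusted p = 4.3e-05). Without the 4 libraries, Oas1a was lower in LG/J by a log2 fold change of -1.76 ± 0.49, Oas3 by -1.09 ± 0.39 and Oasl2 by -1.38 ± 0.48 (adjusted p = 0.0061, 0.031 and 0.027, edgeR). Leaving out LG/J male 6 alone brought calls of Oas1a, Oas2, Oas3 and Oasl2. Oas2 did not pass without the 4 libraries (-0.66 ± 0.42), and Oasl1 was then too low to be tested. Oasl1 reached 4.54 CPM in LG/J male 1 and 4.17 CPM in LG/J male 6, against medians of 0.237 CPM (LG/J) and 0.196 CPM (SM/J). Oas1a shares 57.6% of its 50-base stretches with Oas1g, so its counts are uncertain.

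In the ISG15 system, Isg15, the ubiquitin-like modifier, was higher in LG/J, and Usp18, the protease that removes it and damps the receptor, did not pass. Isg15 had 0.917, 1.65 and 5.93 CPM in LG/J and 0.222, 0.615 and 3.59 CPM in SM/J. The ranges overlapped through SM/J female 2 and SM/J female 8, at 3.59 and 3.09 CPM, and other SM/J libraries above the lowest LG/J value. The log2 fold change of Isg15 was 1.12 ± 0.34 (adjusted p = 0.012, edgeR) and 0.99 ± 0.31 without the 4 libraries. Without the 6 libraries that held both sexes' transcripts it was 0.96 and missed the threshold (adjusted p = 0.064, edgeR). Usp18 had medians of 1.95 CPM in both strains and was highest in SM/J female 2.

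Guanylate-binding and immunity-related GTPases, which attack the vacuoles of intracellular microbes, moved in both directions. Gbp3 was higher in LG/J, with 4.36, 8.21 and 39.4 CPM against 1.02, 3.65 and 7.74 CPM in SM/J. Its log2 fold change was 1.68 ± 0.32 (adjusted p = 0.00017, edgeR) and 1.32 ± 0.28 without the 4 libraries. Gbp7 was lower in LG/J, with 0.556, 1.53 and 5.43 CPM against 1.64, 4.01 and 7.24 CPM in SM/J. Its log2 fold change was -1.10 ± 0.25 (adjusted p = 0.00095, edgeR) and -1.23 without the 4 libraries. Both genes overlap Gbp2b on the same strand, and 12.7% of the 50-base stretches of Gbp7 occur in other genes, so reads may be split between them.

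Irgm1, a regulator of this GTPase family, was lower in LG/J, with 11.6, 17.6 and 26.6 CPM against 16.7, 23.1 and 41.5 CPM in SM/J. The difference was -0.49 ± 0.12 on the log2 scale (adjusted p = 0.0029, edgeR), with overlapping ranges. Gbp2 had 2.03, 4.69 and 67.1 CPM in LG/J and 1.71, 4.19 and 19.8 CPM in SM/J, and its 2 highest values were those of LG/J male 1 and LG/J female 1. Its log2 fold change of 0.85 ± 0.53 (adjusted p = 0.25, edgeR) became -0.070 without the 4 libraries. Igtp did not pass in either fit.

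The ADP-ribosylation genes, Parp9 with its partner ligase Dtx3l and Parp14, did not pass with all libraries. Parp9 had 3.64, 7.54 and 11.8 CPM in LG/J and 2.94, 4.82 and 15.1 CPM in SM/J, with SM/J female 2 highest. Its log2 fold change was 0.42 ± 0.18 (adjusted p = 0.081, edgeR) and 0.43 ± 0.15 without the 4 libraries (adjusted p = 0.025, edgeR). It was also called when LG/J female 2, SM/J female 2 or SM/J male 1 alone was left out, and Dtx3l when SM/J female 2 or SM/J male 1 was. Parp14 had 0.233, 0.909 and 2.65 CPM in LG/J and 0.277, 0.945 and 2.45 CPM in SM/J. Its log2 fold change went from 0.071 to -0.32 without the 4 libraries, with neither value called. Parp9 and Dtx3l overlap on opposite strands, and Parp9 also overlaps Gm15564, which averaged 440 CPM on the opposite strand.

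Many of these genes varied together between libraries of 1 strain. A gene was counted as raised in a library when its level was at least 2-fold above the median of the other 15 libraries of the strain, with 0.1 CPM added to both. By this count, SM/J female 2 had 24 of the 42 genes raised (5.45% of all tested genes) and LG/J male 6 had 20 (6.53%). LG/J male 1 had 15 (12.5%) and LG/J female 1 had 11 (13.1%). SM/J female 8 had 15 (3.27%), the other LG/J libraries had 0 to 4, and the other SM/J libraries 0 to 5. SM/J female 2 was the highest SM/J library for 31 of the 42 genes. LG/J male 6 was the highest LG/J library for 18 and LG/J male 1 for 15. How often each library was the highest over all genes was not computed.

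**Figure D3:**
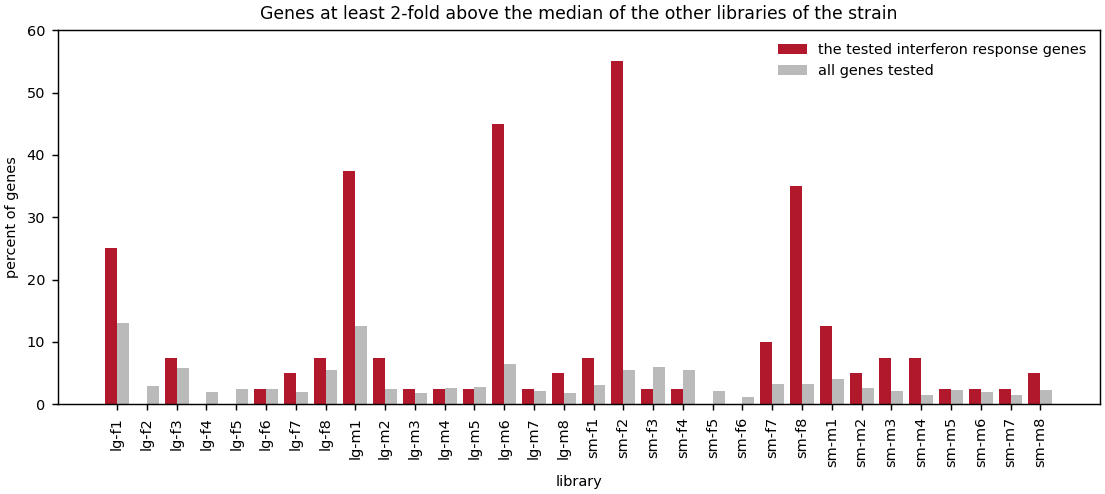
Percent of the 40 tested interferon response genes (red) and of all tested genes (grey) at least 2-fold above the median of the other 15 libraries of the same strain, for each library. The red bars of SM/J female 2 and LG/J male 6 stand for 22 and 18 genes, and the grey bars there are 5.45% and 6.53%.

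LG/J male 6 and SM/J female 2 shared 18 raised genes, 90% of the former's and 75% of the latter's. These included all 5 OAS genes, Irf7, Isg15, Usp18, Mx1, Mx2, Rsad2, Rtp4 and Ifit1. The share of all tested genes raised in both libraries was not computed. In LG/J male 6, Oas1a was at 6.74 CPM, and no other LG/J library exceeded 0.469 CPM, and Rtp4 at 15.2 against at most 5.30 CPM. In SM/J female 2, Oasl2 stood at 15.2 CPM with the next SM/J library at 5.63 CPM, and Rtp4 at 21.8 CPM with the next at 9.75 CPM. The same 2 libraries held the highest macrophage sums. The part of macrophage transcripts in these levels was not tested.

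LG/J female 1 and LG/J male 1 shared 9 raised genes, 81.8% of those in LG/J female 1 and 60% of those in LG/J male 1. With SM/J female 2, which had the longest list of raised genes at 24, LG/J female 1 shared 10 of its 11 (90.9%). LG/J male 1 shared 12 of its 15 (80%). These were 41.7% and 50% of the genes raised in SM/J female 2. A longer list can share more by its length alone, and the share of all tested genes raised in both libraries of a pair was not computed. Gbp2 was raised in LG/J female 1 and LG/J male 1 and not in SM/J female 2. Gbp2 was at 50.8 and 67.1 CPM there, against a median of 3.91 CPM over the other LG/J libraries, and Gbp3 at 28.6 and 39.4 CPM against 7.68 CPM. Other genes were low in the same 2 libraries. Ifi44 was at 0.801 and 1.14 CPM against a median of 8.46 CPM, Ifit2 at 0.801 and 1.39 against 8.73 CPM, and Ifit3b at 0.493 and 0.379 against 4.80 CPM. No read of Oas1a was counted in either. LG/J female 2 had 13 genes at least 2-fold below its strain (12.2% of all tested genes). In LG/J female 1 and LG/J male 1 the chondrocyte sums were the lowest of the series. Their neutrophil marker sums were 119 and 49.5 CPM against a median of 1.19 CPM in LG/J. Their macrophage marker sums were 585 and 483 CPM against a median of 124 CPM in LG/J. The part of these cell types in the levels was not tested.

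**Figure D4:**
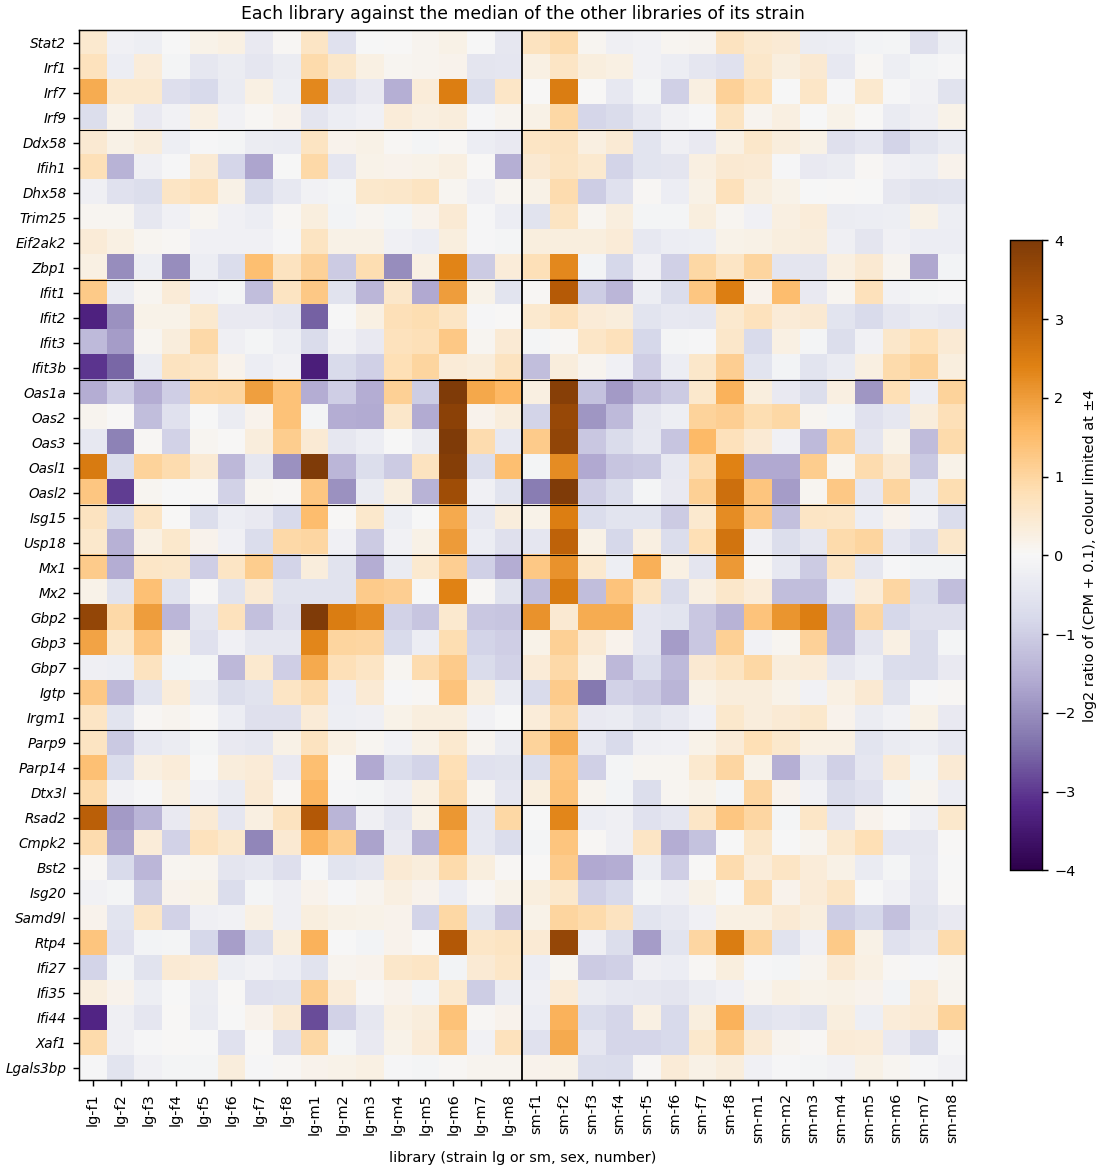
Log2 ratio of each gene's level (CPM + 0.1) in each library to the median of the other 15 libraries of its strain, with genes by role and libraries by strain and sex; the vertical line divides LG/J from SM/J. SM/J female 2 and LG/J male 6 show long orange columns with 24 and 20 raised genes, and LG/J female 1 and LG/J male 1 show both raised (Gbp2, Rsad2) and lowered (Ifit2, Ifit3b, Ifi44) genes.

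The strain difference was next taken within each sex. In females 11 genes were called, 2 higher and 9 lower in LG/J. Of all tested genes 13.4% were called, 6.87% higher and 6.49% lower. In males 7 were called, 4 higher and 3 lower, and of all genes 22.3%, with 12.8% higher and 9.48% lower. Ifit2, Ifit3, Ifi35, Trim25 and Gbp3 were called in both sexes. Ifit3 had a log2 fold change of -4.46 in females and -3.95 in males, and Ifi35 of -1.64 and -1.59 (adjusted p at most 5.9e-08 for these 4 values, edgeR). Ifit2 had -2.22 and -1.51 (adjusted p = 3.3e-05 and 0.0021, edgeR). Leaving out SM/J female 2 alone took the count in females from 11 to 7. In the fit without the 4 libraries 9 members were called in females (14.7% of all genes) and 10 in males (24.9%).

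The difference between the sexes' strain effects was tested as an interaction. No member passed, with edgeR or with DESeq2, and the lowest adjusted p was 0.36 for Oas3 (edgeR). At an unadjusted p under 0.05 there were 7 members with each tool, against 1345 (edgeR) and 1420 (DESeq2) of all 16136 genes. At the adjusted threshold edgeR called 1 of all genes (0.0062%). The estimate was negative for 39 of the 40 members, meaning lower in females relative to males. It was negative for 25 of 39 without the 4 libraries. Neither a member nor any other gene was then called (0.0% of all genes). No member had an unadjusted p under 0.05 in that fit, against 1293 of all 16285 genes (edgeR). Oas1a, for example, had a strain difference of -3.37 in females and 0.64 in males with all libraries, and its highest values were those of SM/J female 2 and LG/J male 6. Over all genes the median interaction estimate was -0.021 with all libraries and 0.0066 without the 4. The share of all genes with a negative estimate was not computed. Of all tested genes 72.3% had strain differences of the same sign in both sexes. That held for 25 of the 40 members, among them all 13 called over both sexes. Those 13 were picked by the mean of both sexes' differences, which favours equal signs, so no conclusion is drawn from them.

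**Figure D5:**
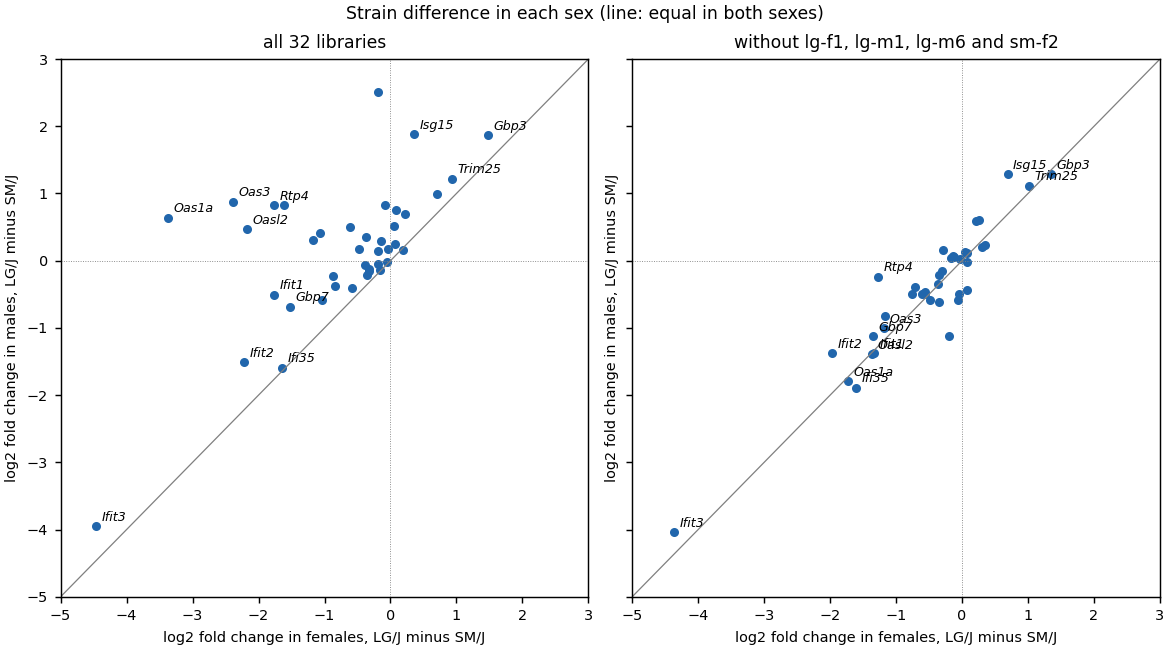
Strain difference (log2 fold change, LG/J minus SM/J) in males against that in females for each tested gene, with all 32 libraries (left) and without the 4 libraries (right); the diagonal marks equal differences. On the left 39 of 40 points lie above the diagonal, and on the right 25 of 39 do.

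No member differed between males and females over both strains in edgeR's test (3.46% of all genes were called). At an unadjusted p under 0.05 there were 3 members with edgeR and 3 with DESeq2, which also called none. Of all 16136 genes, 3035 (edgeR) and 3229 (DESeq2) were under that unadjusted limit. Ifi27 had the lowest adjusted p, 0.13 (edgeR), with a log2 fold change of 0.33, higher in males. Without the 4 libraries Ifi27 passed (adjusted p = 0.039, edgeR) and was the only member to do so, when 8.22% of all genes were called.

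The rest of the interferon pathway was followed with further lists. Interferon genes themselves were close to undetected. Their 21 genes had 1 to 22 counts together in any library, 3 of them had no count at all, and none could be tested. The most counts came from Ifnl3, with 53 over all libraries. A count of 0 allows up to 3 counts, or 0.117 to 0.189 CPM at these depths (counting error only).

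Receptor and relay genes were well expressed in both strains. The 2 chains of the type I receptor, Ifnar1 and Ifnar2, had medians of 28.4 and 13.9 CPM in LG/J and 32.6 and 14.7 CPM in SM/J and did not pass (log2 fold changes -0.19 ± 0.084 and 0.39 ± 0.26). Ifnar1 was called as lower in LG/J without the 4 libraries, at -0.29 (adjusted p = 0.0024, edgeR). Ifngr1, the ligand-binding chain of the interferon gamma receptor, was lower, with 58.4, 73.3 and 89.1 CPM against 78.9, 97.3 and 113 CPM in SM/J (-0.39 ± 0.057, adjusted p = 2.3e-06, edgeR). Ifngr2 did not pass (0.18 ± 0.13). Jak2, a kinase of that receptor, was higher in LG/J, at 0.31 ± 0.097 (adjusted p = 0.014, edgeR).

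Among 13 tested genes that lead to interferon production, 3 passed. Tlr3, the endosomal sensor of double-stranded RNA, had a median of 11.1 CPM (LG/J) and 7.54 CPM (SM/J) (0.75 ± 0.14, adjusted p = 9.8e-05, edgeR). The adaptor Traf3 was higher at 0.22 ± 0.083 and the adaptor Myd88 lower at -0.27 ± 0.068 (adjusted p = 0.038 and 0.0029, edgeR), and Traf3 missed the threshold without the 4 libraries (adjusted p = 0.075). Of 9 tested genes that restrain the response, 2 were higher (Isg15 and Adar, which edits double-stranded RNA) and 1 lower. That was Samhd1, a nucleotide hydrolase, with medians of 122 CPM (LG/J) and 207 CPM (SM/J) (-0.83 ± 0.16, adjusted p = 0.00013, edgeR).

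A list of 59 further induced genes, of which 46 could be tested, held 4 called higher and 6 called lower in LG/J. Lower were the membrane protein Ifitm2 and the genes Slfn5, Slfn8, Trim21, Trim34a and Ifit1bl1, and higher were B2m, the light chain of class I molecules, Tor3a, Adar and Mndal. Ifit1bl1, a gene of the IFIT cluster whose sequence is shared in part with Ifit1, had the smallest p of them, with a median of 0.133 CPM (LG/J) and 0.811 CPM (SM/J) (-2.28 ± 0.27, adjusted p = 5.0e-08, edgeR). Without the 4 libraries 45 were tested, with 3 called higher and 14 lower. The background of these lists is that of all genes, 29.9% with all libraries and 33.7% without the 4.

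Macrophage markers were also compared between the strains. Of 17 tested markers, 7 were called lower in LG/J and none higher, and without the 4 libraries 13 of 16 were lower. Of the 5 defining markers, 1 (Tyrobp) was called with all libraries and 5 without the 4. The background of every marker list here is 13.5% of all genes called lower and 16.4% higher. Without the 4 libraries it is 16.0% and 17.7%. The median log2 fold change of the macrophage markers was -1.43 with all libraries and -2.11 without the 4. The summed level was 63.3, 124 and 2527 CPM in LG/J and 121, 457 and 1928 CPM in SM/J. The part of these cells in the strain differences of the interferon genes was not tested. Of the other marker lists, 3 of 9 chondrocyte markers were higher in LG/J (8 of 9 without the 4 libraries), and 1 of 3 neutrophil markers (3 of 4 without the 4 libraries), 1 of 4 osteoclast markers and 2 of 7 fibroblast markers were lower, with 1 fibroblast marker higher. Of 5 markers of plasmacytoid dendritic cells only Bst2, itself a member, was lower. Without the 4 libraries Bst2 was again lower and Tcf4 of that list was called higher. Of the 4 osteoclast markers 1 was then called higher and 1 lower. No tested marker of T and natural killer cells, B cells or endothelial cells was called.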

How the data were processed

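Messenger RNA was measured by RNA sequencing in 32 libraries of primary chondrocytes, 8 from each sex of each strain. The authors aligned reads with STAR 2.0.4b to GRCm38 and counted them with featureCounts 1.45, as named in the submitters' processing notes. For annotation release and strand setting, the value is not given in the sources used here. Deposited tables hold raw counts per gene, with the authors' CPM and RPKM beside them. Genes without a symbol (1134) held 0.109% of the counts.

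Counts were tested with edgeR 4.0.16 (R 4.3.3; limma 3.58.1) by quasi-likelihood fits over 4 group means, with TMM scaling, edgeR's filter on low counts (16136 genes left) and Benjamini-Hochberg adjustment at 0.05. SE was the size of the log2 fold change divided by the square root of F. Levels are TMM-scaled CPM, and levels are compared between genes only by the deposited RPKM. Symbols came from the Ensembl identifiers. Ifit3 and Ifit3b were also summed as 1 feature. Alternatives were DESeq2 1.42.0 and 9 others, plus 32 fits that left out 1 library each. The fits were checked on simulated counts.

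The members and the lists were chosen with earlier results of these data known. Levels are given for members that passed, for Ifit3 with and without Ifit3b, and for members whose call or direction changed without the 4 libraries. From each further list up to 3 genes with the smallest p among those called are described, with Ifnar1, Ifnar2, Ifngr1 and Ifngr2. One result is not reported here. Other genes were named after their values were seen.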

Additional observations from a re-analysis of the deposited data

Results flagged for a closer look

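In 40 of 168 sets of 8 libraries, each 1 gene in 1 group, the highest library stood far above the other 7, its gap to the next library exceeding 0.526 of the whole range. The limit gives about 1 in 20 by chance only for independent sets of normally spread values. Here all 40 flags were on the high side, many levels were low, and the same libraries recurred. The count of 40 can therefore not be set against that rate. All values are CPM.

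In SM/J female 2 these were Ifi35 at 28.3, Irf7 at 17.1, Mx2 at 1.05, Oas1a at 9.06, Oas2 at 6.08, Oas3 at 9.06, Oasl2 at 15.2, Rsad2 at 5.21, Dtx3l at 9.10, Rtp4 at 21.8 and Zbp1 at 1.97. In LG/J male 6 they were Mx2 at 0.654, Oas1a at 6.74, Oas2 at 5.89, Oas3 at 7.72, Oasl2 at 8.42, Usp18 at 7.72, Ifi44 at 21.8, Rtp4 at 15.2 and Zbp1 at 1.68.

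In LG/J female 1 they were Irf7 at 8.32, Oasl1 at 1.54, Oasl2 at 1.79, Rsad2 at 7.21, Parp14 at 2.59, Gbp2 at 50.8, Xaf1 at 5.30 and Rtp4 at 4.13. In LG/J male 1 they were Rsad2 at 7.89, Ddx58 at 44.8, Dtx3l at 13.2, Gbp2 at 67.1 and Gbp3 at 39.4. Of the 40 values, 7 came from other libraries. Those were Mx2 at 0.288 in LG/J female 3, Oas2 at 1.03 in LG/J female 8, Dtx3l at 6.82 and Gbp7 at 7.24 in SM/J male 1, Ifit1 at 4.38 in SM/J male 2, Gbp3 at 7.58 in SM/J male 3 and Ifi44 at 14.3 in SM/J male 8.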

How the results depend on the processing

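Ifit2, Ifit3, Ifi35, Ifih1, Trim25, Gbp3, Gbp7 and Irgm1 kept their call in the 10 alternatives and all 32 fits without 1 library. Under the replicate block, members higher in LG/J numbered 6 instead of 3, with Dtx3l, Parp9 and Eif2ak2 added, and members lower 9 instead of 10, with Irf1 added (adjusted p = 0.0062, edgeR) and Ifit1 and Bst2 lost (0.10 and 0.071). Ifit1 and Bst2 were also lost without a filter (0.065 and 0.062), Ifit1 with close pairs summed (0.070) and Lgals3bp with library size only (0.064). Stat2 was called without LG/J female 1 and LG/J male 1 (0.040) and Eif2ak2 without the 6 libraries that held both sexes' transcripts (0.043). Of 48 same-number pairs, 30 had r above 0.1 (median 0.138, from -0.447 to 0.844) and 6 correlated best with their own number. The highest r was that of LG/J female 1 with LG/J male 1. These values do not settle whether the replicate numbers mark paired libraries. With 1 library left out, members higher ran from 3 to 5 and females' calls from 7 to 15. The interaction over all genes gave 0 calls with library size only, no filter, the replicate block, without the 4 libraries, without the 6 with transcripts of both sexes and with close pairs summed, 50 with DESeq2, and 0 to 23 with 1 library left out. The sex difference called 1 member without the 4 libraries. Over all genes it called 558, but 123 without a filter, 1029 with DESeq2, 1052 with the replicate block, 1339 without the 4 libraries, 922 without LG/J female 1 and LG/J male 1, 31 with close pairs summed and 314 to 963 with 1 library left out. Uncalled members changed sign, and the cause was not tested. Without the 4 libraries the log2 values were 0.024 (Irf9), -0.51 (Rsad2), 0.098 (Ifi27), -0.32 (Parp14), -0.070 (Gbp2) and -0.18 (Cmpk2). Without LG/J female 1 and LG/J male 1 they were -0.50 (Rsad2), 0.043 (Ifi27), 0.016 (Ifi44), -0.26 (Parp14), -0.084 (Gbp2) and -0.13 (Cmpk2). Under the replicate block they were -0.11 (Rsad2), -0.036 (Parp14) and 0.040 (Xaf1). Without the 6 libraries they were 0.075 (Ddx58) and -0.095 (Parp14), and with close pairs summed 0.070 (Irf7). With 1 library left out they ran from -0.28 to 0.25 (Irf7), -1.35 to 0.31 (Oas2), -0.14 to 0.65 (Rsad2), -0.083 to 0.0064 (Ifi27), -0.066 to 0.036 (Ddx58), -0.13 to 0.19 (Parp14), -0.30 to 0.048 (Igtp), -0.067 to 0.26 (Cmpk2) and -0.11 to 0.19 (Xaf1). Low counts limit the OAS and Mx genes.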

Other observations

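SM/J female 8 had 15 of the 42 genes at least 2-fold above its strain, and 14 of them were also raised in SM/J female 2. In SM/J female 2, 24 of the 42 were raised. The share of all tested genes raised in both libraries was not computed. The macrophage marker sum of SM/J female 8 was 733 CPM. SM/J male 8 had a higher sum, 958 CPM, with 2 genes raised. SM/J male 3, male 2 and male 6 had 626, 619 and 607 CPM with 3, 2 and 1 genes raised. LG/J female 2 had the lowest macrophage marker sum of the series, at 63.3 CPM. The part of macrophage transcripts in these levels was not tested.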
